A study of Sus scrofa with 75 samples.

Results

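The miR-17-92 cluster was examined in small RNA libraries of peripheral blood mononuclear cells (PBMCs) from young pigs. Members were the mature miRNAs of the table whose pig names are miR-17, miR-18a, miR-19a, miR-19b, miR-20a or miR-92a, with the precursor entry of the largest total kept for each name. This gave 8 mature miRNAs of 457 in the table: miR-17-5p, miR-17-3p, miR-18a, miR-19a, miR-19b, miR-20a-5p, miR-20a-3p and miR-92a. The libraries came from 13 pigs, each bled on days 11, 20 and 56 of life, which makes 39 libraries. Between day 4 and weaning at day 20, 5 of the pigs (Topsoil) were given soil daily and 8 (Control) were not. Neither group had soil after weaning, which leaves day 56 as a time without exposure in both.

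The cluster is a single primary transcript from which several hairpins are cut, and each hairpin yields mature miRNAs that lower the stability and translation of mRNAs paired with their seed. Its transcription is activated by MYC, and in mice its loss blocks early B cell development and its excess expands lymphocytes. The mature products fall into families by seed: the miR-17 family (miR-17-5p and miR-20a-5p, known to restrain cell cycle inhibitors and the pro-apoptotic BIM), miR-18, the miR-19 family, and the miR-92 family, which shares its seed with miRNAs made from other loci.

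The sequences of the members are shown because the seed groups them and because single bases separate several of them from relatives elsewhere in the genome. They were read 5′ to 3′ from Sscrofa11.1 at the RefSeq positions, with the seed (bases 2 to 8) in capitals. Of the 8 members, 7 matched an annotated mature product.
miR-17-5p: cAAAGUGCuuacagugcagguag
miR-20a-5p: uAAAGUGCuuauagugcaggua
miR-18a: uAAGGUGCaucuagugcagaua
miR-19a: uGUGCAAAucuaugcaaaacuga
miR-19b: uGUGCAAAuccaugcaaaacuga
miR-92a: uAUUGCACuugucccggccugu
miR-17-3p: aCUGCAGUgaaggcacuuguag

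A further 3 relatives from other loci are shown for comparison, 2 of them with the miR-92 seed and 1 with the miR-17 seed.
miR-92b-3p: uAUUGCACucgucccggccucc
miR-363: aAUUGCACgguauccaucuguaa
miR-106a: aAAAGUGCuuacagugcagguagc

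The 6 hairpins lay on the plus strand within 782 bases, at chr11:60734656-60735437 of Sscrofa11.1, in the order miR-17, miR-18a, miR-19a, miR-20a, miR-19b, miR-92a. No annotated gene other than the miRNAs spanned them. A related cluster of 6 hairpins lay on the minus strand of chromosome X, at chrX:110113552-110114468, and holds miR-106a, miR-18b, miR-20b, miR-363 and further copies of miR-19b and miR-92a. The mature miR-19b and miR-92a of both clusters were identical, so their reads cannot be assigned to one locus. miR-19a and miR-19b differed by 1 base, U11C, counted from 1 at the 5′ end of miR-19a. Over the bases they share, miR-17-5p differed from miR-106a by C1A alone (lengths of 23 and 24 bases), and miR-92a from miR-92b-3p by 3 bases, U10C, G21C and U22C. The authors' counting could split reads between such near neighbours.

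The labels of the libraries needed a decision before any comparison. Treatment and age were taken from the column names, which match the sample descriptions, since the sample characteristics gave the same treatment and the same day in 6 of the 39 libraries only. The total counts of the columns followed the number of mapped reads listed for the library of that name, with a Spearman correlation of 0.83 over the 39 libraries. With the characteristics in place of the names, no member was called in any comparison. Of all 209 miRNAs, 0% were called between ages or between treatments with these labels. There the age model was fitted without the pig block, so that labels and block changed together. Without the block but with the column names, 2 members were called higher in Control pigs from day 11 to day 20 (4.78% of all miRNAs). From day 20 to day 56, 3 were called lower (6.7% of all miRNAs). Both counts of members were as with the block.

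Total counts, with 1 entry per mature miRNA, ranged from 1634831 to 13494765 per library. miR-486, which is abundant in red blood cells, held between 11.8% and 95.5% of them, and left between 389906 and 6343113 reads for all other miRNAs. Levels are therefore given as RPM, here the reads of a miRNA per 1000000 miRNA reads other than miR-486. The leukocyte miRNA miR-142 was present in every library, between 920 and 33596 RPM, as were the lymphocyte miRNAs miR-150 and miR-342, between 5807 and 34302 RPM in sum, and the myeloid miR-223, between 47.8 and 409 RPM. The platelet and endothelial miR-126 ranged from 0 to 224 RPM. The erythroid miR-451 and miR-144 were present in every library too, between 222 and 11452 RPM in sum.

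**Figure D1:**
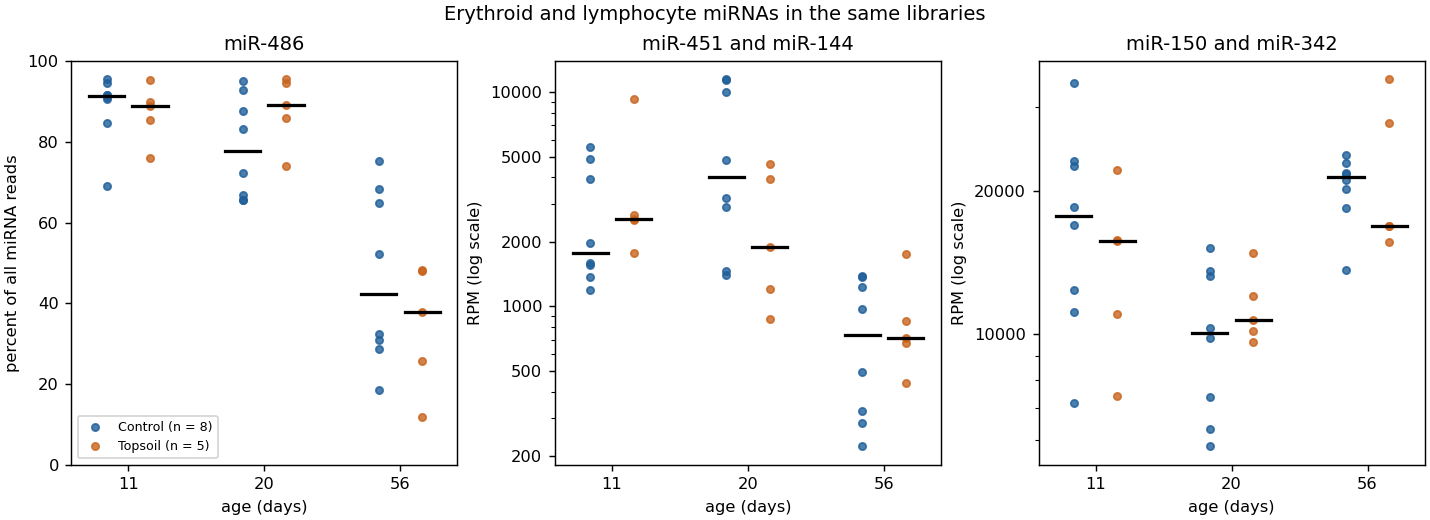
miR-486 as a percent of all miRNA reads, and the summed levels of miR-451 with miR-144 and of miR-150 with miR-342 in RPM (log scale), by age in days. Points are libraries and black bars are medians. The mean share of miR-486 in Control pigs was 88.6% at day 11, 78.6% at day 20 and 46.4% at day 56.

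The cluster's counts are the sum over its members, where reads of miR-92a and miR-19b can come from chromosome 11 or X. miR-92a held most of them. Summed over all libraries it held 84.6% of the cluster's counts, followed by miR-19b with 11.9%, miR-19a with 1.42%, miR-17-5p with 1.06% and miR-20a-5p with 0.844%. miR-18a held 0.0912% and miR-17-3p, the other arm of the miR-17 hairpin, 0.0517%. These mature forms are of 22 or 23 bases, so no scaling by length was made. The median level over the 39 libraries was 13507 RPM for miR-92a, 1704 for miR-19b, 221 for miR-19a, 163 for miR-17-5p, 140 for miR-20a-5p, 10.8 for miR-18a and 8.68 for miR-17-3p. miR-92a stood at place 10 among the miRNAs other than miR-486 by its median level. miR-18a was at 0 in 12 libraries and miR-17-3p in 9. miR-20a-3p had 22 reads in all, spread over 9 libraries, and did not reach the limit for testing of a read in 17 libraries and a mean above 2. The other 7 members passed it, among 209 miRNAs tested.

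**Figure D2:**
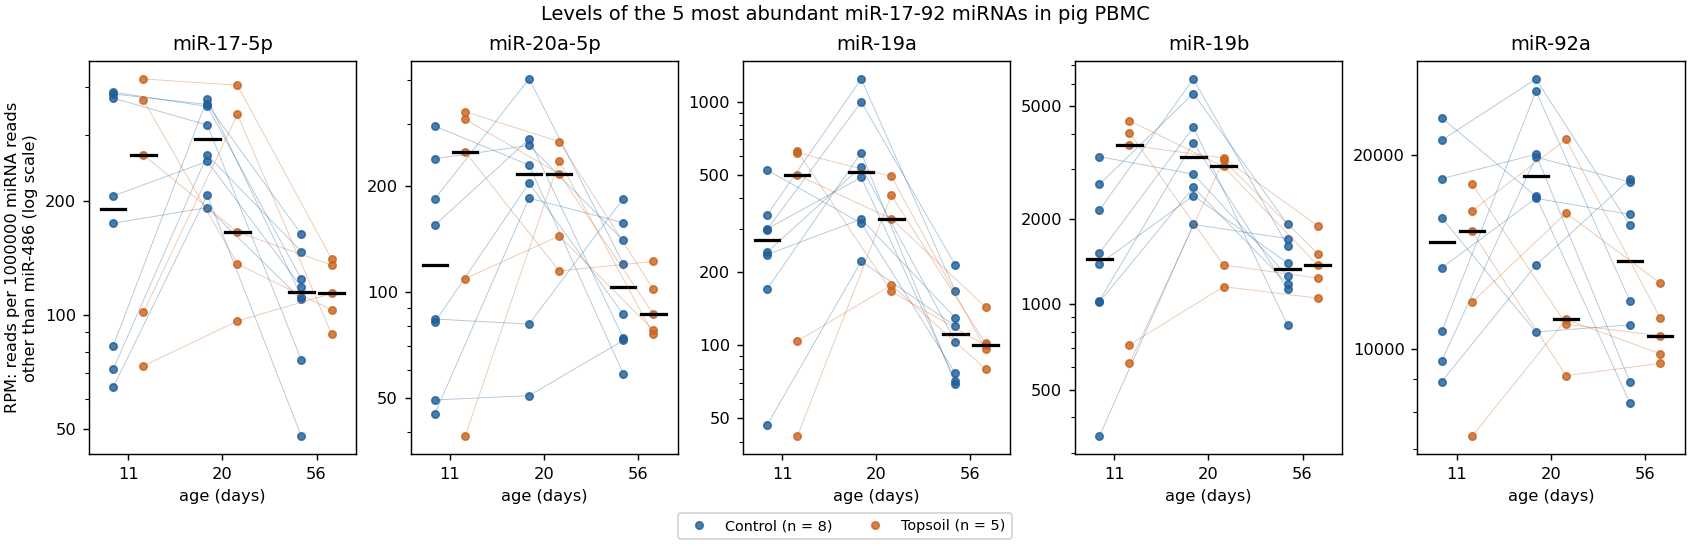
Levels of the 5 most abundant members in RPM (log scale), by age in days. Points are libraries, thin lines join the libraries of 1 pig, and black bars are medians of the 8 Control or 5 Topsoil pigs. For miR-19a the Control medians were 270 at day 11, 514 at day 20 and 111 at day 56.

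Between days 11 and 20, which span the second part of lactation, the miR-19 family rose in Control pigs. miR-19b went from a lowest, median and highest level of 341.8, 1449 and 3316 RPM at day 11 to 1913, 3299 and 6234 RPM at day 20, and was higher at day 20 in 7 of 8 pigs. The groups overlapped, with the day 20 median close to the highest library of day 11. miR-19b was 2.65-fold higher in edgeR's quasi-likelihood test (log2 fold change 1.41 ± 0.30 SE, Benjamini-Hochberg adjusted p = 0.0172). miR-19a went from 46.9, 270 and 524 RPM to 221, 514 and 1239 RPM, also up in 7 of 8 pigs, and its groups overlapped as well. Its log2 fold change was 1.28 ± 0.37 SE with an edgeR adjusted p of 0.0872. Of the 7 tested members 2 were called higher and 0 lower, against 5.26% of all tested miRNAs called higher in this comparison. All 7 log2 fold changes were above 0, with a median of 1.28, while the median over all 209 miRNAs was 0.30.

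The call of miR-19a was the less firm of the pair. It was lost with TMM, total counts, counts without miR-486 and DESeq2, with either other filter on low counts, with every entry of the table or litter size by age added, and when Control replicate 1, 2, 3, 4, 6 or 8 or Topsoil replicate 3 or 5 was left out (adjusted p between 0.102 and 0.272). miR-19b kept its call with TMM and with library sizes that leave out miR-486, where 1 member was called and 0.478% of all miRNAs were called higher (log2 fold change 1.25, edgeR adjusted p = 0.0891), and lost it with total counts (adjusted p = 0.154), without Control replicate 2 (adjusted p = 0.109) or without Control replicate 8 (adjusted p = 0.109).

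The remaining members gave smaller or less certain differences over the same days. miR-17-5p had a Control median of 191 RPM at day 11 and 291 at day 20 (log2 fold change 0.79 ± 0.33 SE, edgeR adjusted p = 0.229). At day 11 its libraries fell into 3 values of at most 82.8 RPM and 5 values of at least 174.8 RPM, and at day 20 all lay between 192 and 373. miR-20a-5p had medians of 119 and 216 RPM (0.81 ± 0.39 SE, adjusted p = 0.314), and miR-92a of 14687 and 18572 RPM (0.45 ± 0.22 SE, adjusted p = 0.314). Both were higher at day 20 in 6 of 8 pigs. miR-18a had the steepest log2 fold change, 2.97 ± 1.22 SE, but its median was 0 at day 11 and 30.9 RPM at day 20, and it did not pass the test (adjusted p = 0.353). With single pigs left out its log2 fold change lay between 2.03 and 4.32.

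In Topsoil pigs no member passed the test over the same interval, and neither did any of the 209 miRNAs (0% called by edgeR, 6 at an unadjusted p under 0.05). miR-19b stood at 4034, 619, 718, 4439 and 3641 RPM at day 11 in replicates 1 to 5, and at 1376, 3217, 1154, 3063 and 3280 RPM at day 20. The day 11 values split into 2 low and 3 high pigs. Both low pigs were higher at day 20 and the 3 high pigs lower. The log2 fold change was -0.09 ± 0.40 SE (edgeR adjusted p = 0.996). miR-19a showed the same 2 pigs lowest at day 11, with 627, 42.1, 104, 617 and 500 RPM, against 166, 413, 176, 493 and 330 RPM at day 20.

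The difference between treatments in this change was tested itself. The Topsoil change of miR-19b from day 11 to day 20 was lower than the Control change by 1.49 ± 0.51 SE on the log2 scale, which did not pass after adjustment over all miRNAs (edgeR adjusted p = 0.456), and that of miR-19a was lower by 1.43 ± 0.64 SE (adjusted p = 0.511). In the joint test of treatment by age, 0 of 7 members and 0% of the 209 miRNAs were called by edgeR, with adjusted p-values of 0.462 for miR-19b, 0.546 for miR-19a and 0.812 for miR-92a. A single member, miR-19b, had an unadjusted p under 0.05, as did 22 of all miRNAs. The age effects of Control pigs are thus not shown to differ from those of Topsoil pigs.

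**Figure D3:**
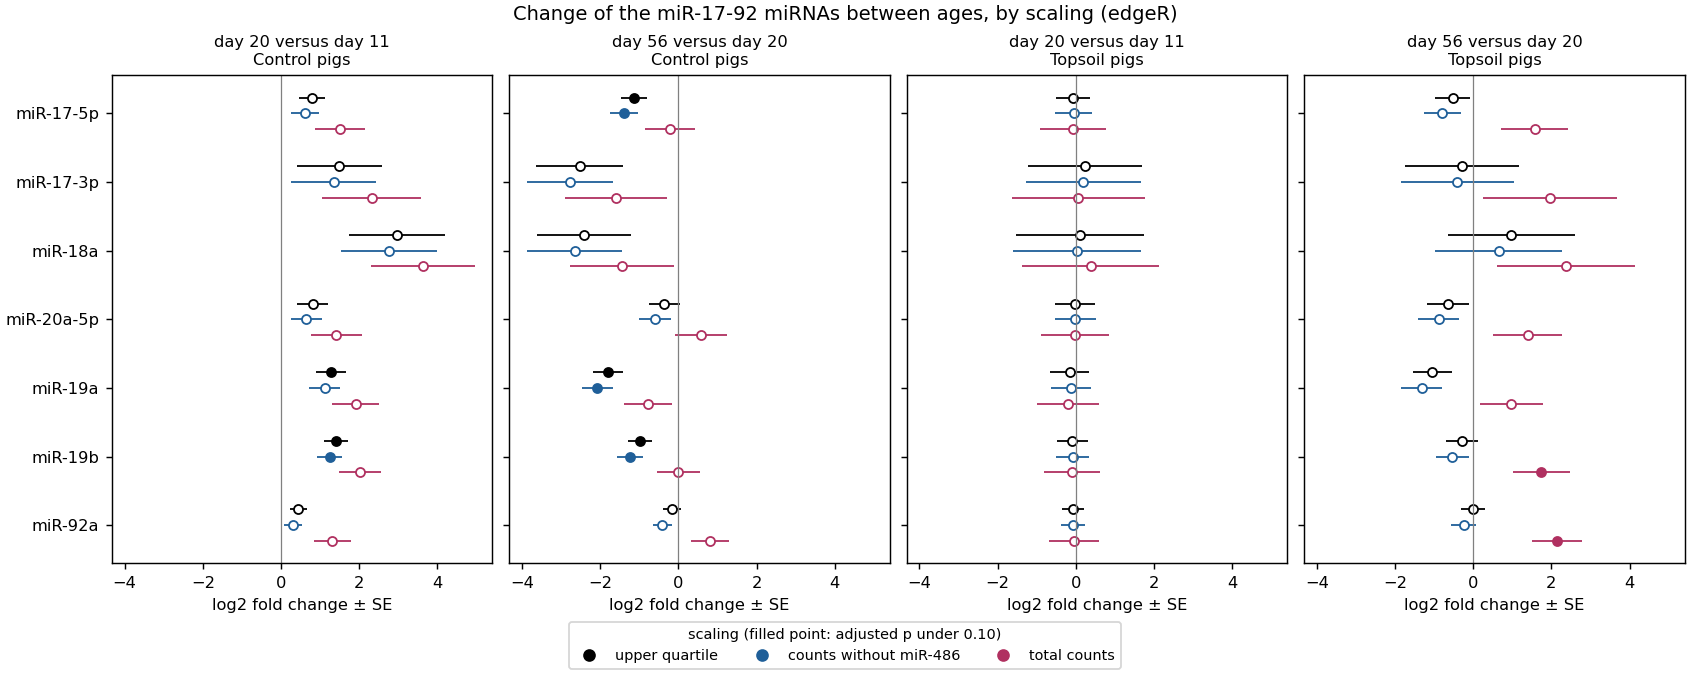
Log2 fold change with its SE for the 7 tested members between ages, under library sizes from the upper quartile, from counts without miR-486 and from total counts. Filled points had an adjusted p under 0.10. From day 20 to day 56 the members lie below 0 in Control pigs under the first pair of scalings, while total counts move every value upwards.

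Between day 20 and day 56, after weaning, miR-19a, miR-17-5p and miR-19b fell in Control pigs. miR-19a went from 221, 514 and 1239 RPM (lowest, median and highest) to 68.9, 111 and 213 RPM. In RPM the groups did not overlap, and all 8 pigs were lower at day 56. Its log2 fold change was -1.80 ± 0.38 SE, a level of 0.287 of that at day 20 (edgeR adjusted p = 0.00273). miR-17-5p went from 192, 291 and 373 RPM to 47.7, 115 and 163 RPM, again with no overlap and with 8 of 8 pigs lower. Its log2 fold change was -1.14 ± 0.34 SE (edgeR adjusted p = 0.0407). miR-19b fell in 8 of 8 pigs, from 1913, 3299 and 6234 RPM to 844, 1328 and 1917 RPM, and its groups overlapped by a narrow margin. Its log2 fold change was -0.97 ± 0.31 SE (edgeR adjusted p = 0.0509).

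Thus 3 of 7 tested members were called lower, against 6.7% of all miRNAs, and all 7 log2 fold changes were below 0. Their median was -1.14, and the median over all 209 miRNAs was -0.03. miR-92a was at 18572 RPM in the median at day 20 and 13718 RPM at day 56 (-0.16 ± 0.23 SE, edgeR adjusted p = 0.793), and was lower in 6 of 8 pigs. miR-20a-5p, with the seed of miR-17-5p, had medians of 216 and 103 RPM (-0.36 ± 0.40 SE, adjusted p = 0.724). miR-17-3p and miR-18a had medians of 16.1 and 30.9 RPM at day 20 and 5.79 and 8.64 RPM at day 56, and neither passed the test (adjusted p = 0.294 and 0.398).

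With library sizes that leave out miR-486, the same 3 members were called lower, against 11.5% of all miRNAs, with log2 fold changes of -2.07 for miR-19a, -1.39 for miR-17-5p and -1.24 for miR-19b. With total counts none was called, and the median over all miRNAs moved to 0.89. Without Control replicate 7 the call of miR-17-5p (edgeR adjusted p = 0.102) and that of miR-19b (adjusted p = 0.101) were lost, and miR-19b was also lost without Control replicate 2, 4 or 6 or Topsoil replicate 3, with adjusted p-values between 0.107 and 0.158. miR-19a was called with each pig left out.

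The mean levels of the cell type miRNAs at the 3 ages are given as a description, without a test. The sum of miR-451 and miR-144 averaged 2758 ± 1755, 5827 ± 4392 and 784 ± 505 RPM on days 11, 20 and 56 in Control pigs (SD, n = 8), with ranges of 1191 to 5566, 1399 to 11452 and 222 to 1378 RPM. The sum of miR-150 and miR-342 averaged 18196 ± 8394, 10201 ± 3543 and 20431 ± 3208 RPM at these ages, and miR-142 averaged 6318 ± 3179, 9004 ± 2631 and 14680 ± 8292 RPM. In Topsoil pigs the erythroid sum averaged 3753 ± 3084, 2503 ± 1673 and 887 ± 508 RPM (SD, n = 5), with ranges of 1771 to 9232, 873 to 4607 and 441 to 1756 RPM. Their lymphocyte sum averaged 14411 ± 5554, 11460 ± 2059 and 22291 ± 8329 RPM and their miR-142 6749 ± 2242, 6702 ± 2456 and 15061 ± 3140 RPM. The myeloid miR-223 averaged 186, 197 and 159 RPM in Control pigs and 115, 145 and 191 RPM in Topsoil pigs. For miR-126 the means were 66.6, 43.6 and 35.0 RPM in Control pigs and 27.3, 16.5 and 43.1 RPM in Topsoil pigs. The part of these miRNAs in the changes of miR-19a, miR-19b and miR-17-5p was not tested. In such bulk samples fewer cells of a type and less RNA per cell cannot be told apart.

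In Topsoil pigs no member was called between day 20 and day 56, against 9.57% of all miRNAs. miR-19a fell short of the threshold although its groups did not overlap: after the day 20 values given above it stood at 99.6, 102, 79.9, 96.1 and 143 RPM at day 56, lower in 5 of 5 pigs. The log2 fold change was -1.04 ± 0.51 SE (edgeR adjusted p = 0.238). miR-19b stood at 1237, 1507, 1051, 1374 and 1891 RPM at day 56 and was also lower in 5 of 5 pigs (-0.28 ± 0.41 SE, adjusted p = 0.718). miR-17-5p went from 136, 339, 96.3, 405 and 166 RPM to 103, 88.9, 114, 141 and 135 RPM, lower in 4 of 5 pigs (-0.53 ± 0.45 SE, adjusted p = 0.534). For miR-92a the values were 10935, 16270, 11126, 21163 and 9099 RPM at day 20 and 10494, 12661, 9839, 11178 and 9506 RPM at day 56, and its log2 fold change was -0.01 ± 0.30 SE (adjusted p = 0.996). With total counts, miR-19b and miR-92a were instead called higher in these pigs at day 56, as were 50.2% of all miRNAs, all 7 members had log2 fold changes above 0, and the median log2 fold change over all miRNAs was 2.65.

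From day 11 to day 56 no member was called in either treatment, against 17.7% of all miRNAs in Control pigs and 13.4% in Topsoil pigs. In Control pigs 4 members had a log2 fold change above 0 and 3 below. miR-19b had medians of 1449 and 1328 RPM (0.43 ± 0.32 SE, edgeR adjusted p = 0.481), and the fold change and the ratio of the medians differ in direction. miR-19a had medians of 270 and 111 RPM (-0.52 ± 0.40 SE, adjusted p = 0.501). In Topsoil pigs the log2 fold change of miR-19a was -1.20 ± 0.47 SE (edgeR adjusted p = 0.125), and with library sizes that leave out miR-486 it was called lower (-1.44, adjusted p = 0.0936), as were 8.61% of all miRNAs. With total counts, 3 members were called higher in Control pigs (miR-19b, miR-20a-5p and miR-92a, against 48.3% of all miRNAs) and 2 in Topsoil pigs (miR-19b and miR-92a, against 65.1%). All 7 members then had log2 fold changes above 0 in both treatments. Those calls were made with a median log2 fold change over all miRNAs of 1.996 in Control and 2.69 in Topsoil pigs.

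Topsoil and Control pigs were also compared at each age alone. No member was called at day 11 (0% of all miRNAs called), at day 20 (0.478%) or at day 56 (0%). At an unadjusted p under 0.05, edgeR gave 6 of the 209 miRNAs at day 11, 26 at day 20 and 6 at day 56, and of the members 0, 1 and 0. At day 20, the last day of soil contact, all 7 log2 fold changes were below 0, with a median of -0.62 against -0.24 over all miRNAs, and 6 of 7 were below 0 with TMM. The lowest p belonged to miR-19a, whose Control libraries lay between 221 and 1239 RPM and whose Topsoil libraries lay between 166 and 493 RPM, with overlap (log2 fold change -0.96 ± 0.37 SE, edgeR adjusted p = 0.247). For miR-92a the difference at day 20 was -0.49 ± 0.25 SE (adjusted p = 0.452) and at day 56 -0.36 ± 0.24 SE (adjusted p = 0.862). With total counts the latter was 0.053, and all 7 members were above 0 at day 56.

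The members were then compared with one another inside each library, which needs no library size. The reads of each miRNA were divided by those of miR-92a (log2 ratio with 0.5 added to both counts), and the change over the 13 pigs was tested with an exact two-sided permutation test that flips the sign of each pig's change, adjusted over 208 miRNAs. From day 20 to day 56, miR-19a, miR-17-5p and miR-19b fell relative to miR-92a. In Control pigs, miR-19a had between 11.0 and 49.3 reads per 1000 reads of miR-92a at day 20, with a median of 36.9, and between 4.25 and 14.0 at day 56, with a median of 8.20. In Topsoil pigs it ranged from 15.2 to 36.2 at day 20 and from 8.02 to 15.1 at day 56. Its mean change was -1.53 ± 0.94 on the log2 scale (SD, n = 13 pigs, 12 lower, exact permutation test, adjusted p = 0.0113).

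miR-17-5p changed by -0.77 ± 0.63 (SD, n = 13, 12 pigs lower, exact permutation test, adjusted p = 0.0149), with means of -0.94 in Control and -0.49 in Topsoil pigs. miR-19b changed by -0.68 ± 0.83 (11 of 13 pigs lower, exact permutation test, adjusted p = 0.0647). Its call was lost without Control replicate 2, 3, 4, 5 or 8 or Topsoil replicate 2 or 5 (exact permutation test, adjusted p between 0.102 and 0.112). miR-20a-5p changed by -0.47 ± 1.03 and was lower in 10 of 13 pigs (exact permutation test, adjusted p = 0.302). Without Control replicate 1 it changed by -0.71 and was called. So 3 of the 6 ratios were called lower, against 5.77% of the 208 miRNAs, while 16.3% were called higher and 22.1% in either direction. In either treatment taken alone no ratio of a member passed. The change of miR-19a was -1.74 in Control pigs (exact permutation test, p = 0.0156, adjusted p = 0.203) and -1.20 in Topsoil pigs (p = 0.0625, adjusted p = 0.213), and that of miR-17-5p in Control pigs had an adjusted p of 0.148 in the exact permutation test. The smallest exact p that these sizes of group allow is 0.0078 in Control and 0.0625 in Topsoil pigs.

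From day 11 to day 20 no ratio was called (0% of 208). The ratio of miR-19b to miR-92a was higher in 11 of 13 pigs, and in 8 of 8 Control pigs, by 0.66 ± 1.06 (SD, n = 13, exact permutation test, adjusted p = 0.699). From day 11 to day 56 no member was called, against 20.2% of all miRNAs, and miR-19a was lower in 11 of 13 pigs (-0.93 ± 1.35, exact permutation test, adjusted p = 0.128). Between treatments no ratio was called at any age (0% at each age, exact permutation test of 8 against 5 pigs). As a share of the cluster's reads, miR-92a made up between 69.3% and 97.2% of each library, with Control means of 86.4 ± 5.8%, 79.4 ± 6.2% and 87.9 ± 4.2% on days 11, 20 and 56 (SD, n = 8). The share of 97.2% belonged to Control replicate 1 at day 11.

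**Figure D4:**
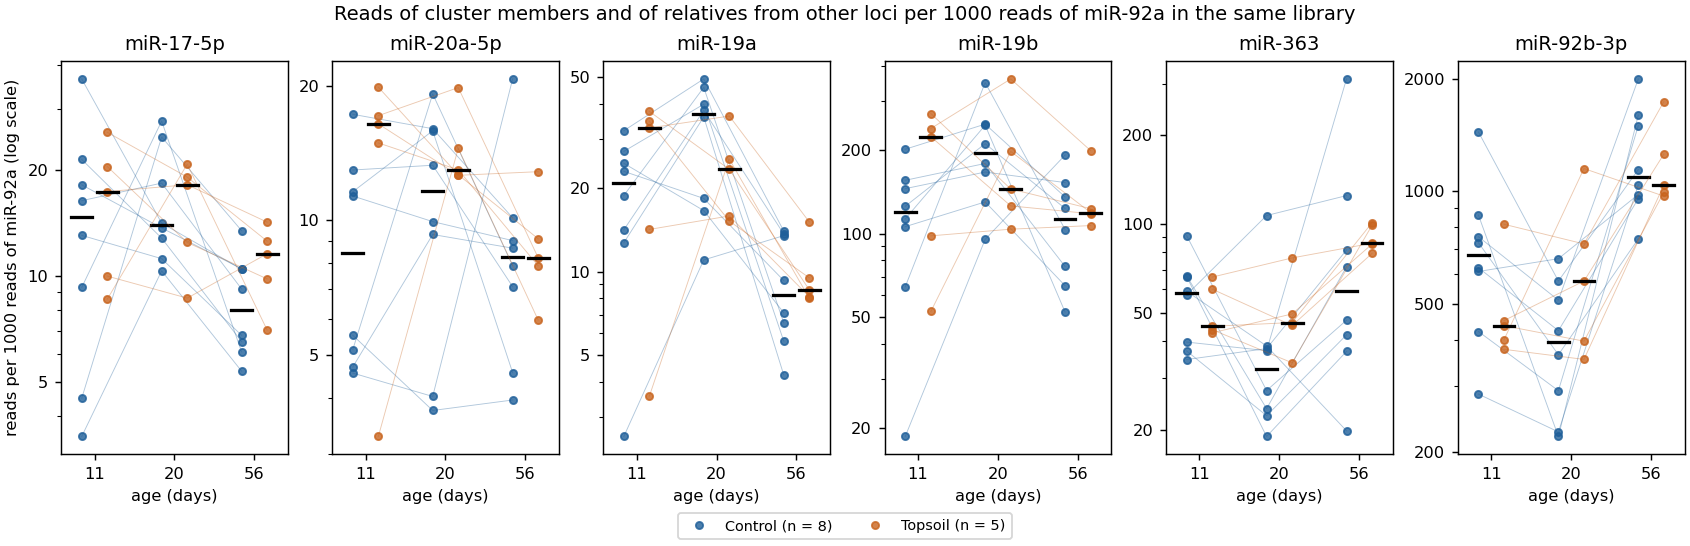
Reads of 4 cluster members and of miR-363 and miR-92b-3p, which come from other loci, per 1000 reads of miR-92a in the same library (log scale), by age in days. Points are libraries, thin lines join the libraries of 1 pig and black bars are medians. From day 20 to day 56 miR-19a fell in 12 of 13 pigs and miR-92b-3p rose in 12 of 13.

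Of the relatives from other loci, 7 mature forms were in the table and 5 were tested (miR-106a, miR-20b, miR-363, miR-92b-3p and miR-32), with miR-18b and miR-92b-5p below the limit. All of them share a seed with a member except miR-92b-5p, the other arm of the miR-92b hairpin. miR-106b, miR-93 and miR-25 were looked for as well, and no counts were listed under these names. miR-92b-3p, made from chromosome 4 (chr4:94624293-94624314, minus strand) with the seed of miR-92a shown above, was between 5048 and 10248 RPM in Control pigs at day 20, with a median of 6634, and between 10684 and 20983 RPM at day 56, with a median of 16773. The groups did not overlap, and 8 of 8 pigs were higher (log2 fold change 1.44 ± 0.22 SE, edgeR adjusted p = 6.275e-05). In Topsoil pigs it went from 12575, 9347, 8037, 7500 and 3608 RPM to 10177, 15915, 17099, 11611 and 9440 RPM, higher in 4 of 5 pigs (0.92 ± 0.29 SE, edgeR adjusted p = 0.0589).

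Relative to miR-92a, miR-92b-3p rose by 1.40 ± 0.81 on the log2 scale from day 20 to day 56 (12 of 13 pigs higher, exact permutation test, adjusted p = 0.0113) and by 1.04 ± 0.65 from day 11 (12 of 13 pigs, exact permutation test, adjusted p = 0.0138). In Control pigs the median was 394 reads of miR-92b-3p per 1000 of miR-92a at day 20 and 1091 at day 56, and in Topsoil pigs 574 and 1039. miR-92a was thus the more abundant of the pair in the median library before weaning and miR-92b-3p after it. miR-363, from the end of the chromosome X cluster, rose by 0.94 ± 0.92 relative to miR-92a from day 20 to day 56 (12 of 13 pigs higher, exact permutation test, adjusted p = 0.0212). It was called higher by edgeR in Control pigs (0.80 ± 0.26 SE, adjusted p = 0.0512), but not in Topsoil pigs (0.88 ± 0.34 SE, adjusted p = 0.122). At day 56 Control replicate 7, the library with the lowest total count, had 311 reads of miR-363 per 1000 of miR-92a. The next highest Control library had 125. The result for miR-363 without this pig is not given here. With library sizes that leave out miR-486, neither miR-363 in Control pigs nor miR-92b-3p in Topsoil pigs was called from day 20 to day 56. miR-106a, miR-20b and miR-32 had between 519 and 1328 reads in all and were called in no comparison with upper quartile scaling. miR-20b, with the seed of miR-17-5p, was higher at day 20 than at day 11 in 7 of 8 Control pigs (log2 fold change 2.25 ± 1.07 SE, edgeR adjusted p = 0.356) and lower at day 56 than at day 20 in 5 of 8 (-1.24 ± 1.08 SE, adjusted p = 0.709). In Topsoil pigs its log2 fold changes had the opposite signs, -1.32 ± 1.40 SE from day 11 to day 20 (edgeR adjusted p = 0.996) and 2.17 ± 1.41 SE from day 20 to day 56 (adjusted p = 0.466, 4 of 5 pigs higher). No test compared the relatives with the members as groups.

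The members also differed in how they varied from library to library. Spearman correlations of log2 RPM over the 39 libraries, which share depth and age structure and are given as a description, were between 0.64 and 0.87 for the 6 pairs among miR-17-5p, miR-19a, miR-19b and miR-20a-5p, and highest for the miR-19 pair. With miR-92a these 4 miRNAs had correlations between 0.44 and 0.52. After the mean of each treatment and age was subtracted, the ranges were 0.57 to 0.88 and 0.38 to 0.49. Outside the cluster, miR-103 was the closest to miR-19b (0.82), miR-17-5p (0.75) and miR-20a-5p (0.64), and miR-148a-3p to miR-19a (0.75). The 3 closest also held the erythroid miR-144 for miR-17-5p (0.68) and miR-451 for miR-19a (0.72), which became 0.54 and 0.37 after subtraction of the group means. For miR-92a the 3 closest were miR-423-3p (0.74), miR-2320-5p (0.72) and miR-423-5p (0.67), and its correlation with miR-92b-3p was -0.15, or 0.092 after subtraction of the group means. For miR-18a they were miR-186-5p (0.77), miR-7137-5p and miR-9820-5p, and for miR-17-3p they were miR-9820-5p (0.64), miR-16 and let-7d-5p.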

How the data were processed

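The authors trimmed 50-base single-end small RNA reads with Trim Galore 0.4.5, aligned them to Sscrofa11.1 with miRDeep2 (version not given in the sources used here) and deposited raw read counts per mature miRNA and precursor, without normalization. A read that fits several precursors can be counted in each, so the entry with the largest total was kept per mature name. The mRNA table was not used here. RNA quality (RQI) and litter size came from the study's sample table.

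Counts were analysed with edgeR 4.0.16 in R 4.3.3. Testing was limited to miRNAs detected in 17 or more libraries with a mean count above 2. The age model had pig, age, treatment by age and RQI, with upper quartile scaling (75%), and treatments were compared at each age in a fit of that age alone. The study's methods use pig as a random effect with further covariates, while pig entered here as a fixed block. P-values were Benjamini-Hochberg adjusted over all tested miRNAs, and called means under 0.10. SEs came from the information matrix and the quasi-likelihood dispersion. Pig is a block because the labels give each animal at 3 ages: deviations from group means correlated by 0.057 within and -0.0051 between pigs. Replicate numbers do not pair Control with Topsoil pigs. Ratios were tested with exact permutation tests in Python 3.11.15, and sequences were read with samtools 1.23.1. The code was tested on simulated data. Alternatives were other scalings, filters and covariates, DESeq2 1.42.0, every entry, the sample characteristics, another pseudocount, and each pig left out. Members, lists and tests were chosen with earlier results of these data known. Named miRNAs were all members, the relatives from other loci, the 3 non-members closest to each member by Spearman correlation, miR-486 and the cell type markers. Without molecular identifiers, low counts carry more error than counting gives.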

Additional observations from a re-analysis of the deposited data

How the results depend on the processing

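The number of members called higher in Control pigs from day 11 to day 20, 2 in the reported fit, was 1 with TMM, counts without miR-486, DESeq2, no filter on low counts, a mean of at least 50 counts, every entry of the table or litter size by age added, where between 0.315% and 0.957% of all tested miRNAs were called higher. It was 0 with total counts or with the labels of the sample characteristics and no pig block, where 0% of all miRNAs were called. Labels and block were changed together in every age comparison with these labels. With single pigs left out the number was between 0 and 2. Without 1 of the Control pigs, between 0% and 8.61% of all miRNAs were called higher. The number called lower from day 20 to day 56, 3, was 0 with total counts or with those labels and no pig block. In both of those fits 0% of all miRNAs were called lower. With single pigs left out the number of members was between 1 and 3. The 1 came without Control replicate 7, where 3.83% of all miRNAs were called lower. Total counts gave 3 members called higher in Control pigs from day 11 to day 56 (48.3% of all miRNAs). In Topsoil pigs they gave 2 from day 20 to day 56 (50.2%) and 2 from day 11 to day 56 (65.1%). In Topsoil pigs, 1 member was called lower from day 20 to day 56 with DESeq2 (8.61% of all miRNAs) or without RQI (4.31%), and 1 from day 11 to day 56 with TMM, counts without miR-486, DESeq2, a mean of at least 50 counts, without RQI or without the replicate block (between 4.78% and 12% of all miRNAs), and between 0 and 1 with single pigs left out (1 without Control replicate 1 or Topsoil replicate 2). Leaving the replicate block out changed no other count of called members by over 1.5 times. For ratios to miR-92a, 3 were called from day 20 to day 56 (22.1% of all 208 in the reported test), and between 2 and 4 with single pigs left out. From day 11 to day 56, 0 were called in the reported test (20.2% of all 208), 1 with a pseudocount of 5, and between 0 and 1 with single pigs left out. The shares of all miRNAs in these alternative ratio tests are not given here. All other counts of called members, treatment comparisons and the interaction included, kept their value or stayed within 1.5 times. The causes were not tested.

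Some log2 fold changes changed sign. With the labels of the sample characteristics and no pig block the Control change from day 11 to day 20 was -0.38 for miR-17-3p, -0.16 for miR-17-5p, -0.57 for miR-18a, -0.52 for miR-19a, -0.47 for miR-19b, -0.41 for miR-20a-5p and -0.45 for miR-92a, and that from day 20 to day 56 was 0.055 for miR-17-5p, 0.31 for miR-18a and 0.11 for miR-19b. In the same fit miR-19b also changed by 0.36 from day 11 to day 20 in Topsoil pigs and by -0.37 from day 11 to day 56 in Control pigs, the Topsoil change from day 11 to day 20 exceeded the Control change by 0.48 for miR-19a and 0.83 for miR-19b, and with these labels, in fits of a single age that have no block, Topsoil differed from Control by 0.10 for miR-19a at day 20 and 0.12 for miR-92a at day 56. With total counts, the change from day 20 to day 56 was 0.58 for miR-20a-5p and 0.82 for miR-92a in Control pigs, and in Topsoil pigs 1.57 for miR-17-5p, 0.98 for miR-19a, 1.75 for miR-19b and 2.15 for miR-92a. From day 11 to day 56 that of miR-19a was 1.13 in Control and 0.78 in Topsoil pigs, and at day 56 Topsoil differed from Control by 0.053 for miR-92a. With a mean of at least 50 counts, miR-92a changed by 0.13 from day 20 to day 56 in Control pigs and miR-19b by 0.045 from day 11 to day 20 in Topsoil pigs. Changes near 0 in Topsoil pigs also turned for miR-19b from day 11 to day 20, to 0.027 without RQI, to 0.18 with litter size by age added and to between -0.39 and 0.18 with single pigs left out (above 0 without Topsoil replicate 1 or 4), and for miR-92a from day 20 to day 56, to 0.093 with litter size by age added and to between -0.10 and 0.054 with single pigs left out.

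Limits: levels depend on the scaling, with miR-486 at a share of the reads that differed between ages, and the ratios to miR-92a and the shares of the cluster's reads do not depend on it. miR-18a and miR-17-3p were at 0 in many libraries, so differences in them were not detectable at this depth unless large. The libraries follow the column names, which the sample characteristics contradict in most cases.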

Other observations

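Within each of the 6 groups of treatment and age, the 7 tested members were searched for a library far from the others, and in none of these 42 sets did the highest or lowest value stand apart by Dixon's 95% criterion, where about 2.1 would by chance. For no member did every Control pig move one way between ages and every Topsoil pig the other.

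The 2 table entries of miR-19b, named for its hairpins on chromosomes 11 and X, differed by at most 16 counts in a library. The chromosome X entry had the larger total, 179725 against 179679, and was the one kept. Those of miR-92a did not match so closely: the chromosome 11 entry had between 1.08 and 1.26 times the counts of the chromosome X entry in every library, with totals of 1273970 and 1097251, although the mature sequence is the same.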
